A study of Mus musculus with 6 samples.

Results

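*Marcks*, *Gpm6a*, *Gpm6b* and *Epha7*, genes whose proteins sit at the membrane of growing neurites, were followed on 6 probes in the neocortex of mice that lack KHSRP, a protein that binds AU-rich stretches in mRNAs and promotes their decay. A probe was taken when the study's own table of changed mRNAs, selected on the difference between genotypes, gave it 1 of these 4 symbols. These are 4 of the 1727 genes that could be named on the array, and their probes are 6 of 1803 named probes and of 60915 probe names in all. *Marcks* and *Epha7* had 1 probe each, and *Gpm6a* and *Gpm6b* had 2 each. RNA came from neocortex of adult male mice, 3 KHSRP-KO (*Khsrp*-/-, a constitutive deletion on a C57Bl/6 background) and 3 WT littermate mice, and each mouse had 1 array of 1 colour. The deletion reaches every cell of the animal, so the arrays do not separate effects in neurons from effects in other cells. Whole tissue was used, and a change in the number of cells of a type and a change in RNA per cell cannot be told apart.

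The 6 probes were all named in the block of that table that lists mRNAs higher in *Khsrp*-/- neocortex on these same arrays. The difference between genotypes therefore chose the members, and it is given as a description with no test. A probe of these genes that did not differ would carry no symbol here, and a lower one could also lack a symbol. No values just outside the selection can therefore be given. On the authors' normalized values, where the selection asked for a difference of 25%, the 6 probes lay between 1.28-fold and 1.54-fold. The selection also asked for a p under 0.05, which the methods call adjusted and a plot legend does not. No probe was named as *Khsrp*, so only the sample labels tell the genotype of an array. Of 48 marker genes of neurons, glia, microglia and vessels, only *Slc1a2* had a named probe, so the tissue could not be checked against its markers.

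The growth cone is the motile tip of an axon or dendrite, where actin is rebuilt beneath a membrane rich in phosphoinositides and guidance receptors. MARCKS is a myristoylated substrate of protein kinase C that binds phosphoinositides, calmodulin and actin at the inner face of the membrane, and phosphorylation releases it into the cytosol. GPM6A and GPM6B are proteolipid proteins that cross the membrane several times, like the myelin protein PLP. GPM6A is known for driving filopodia and neurite extension in neurons, and GPM6B is also found in oligodendrocytes and astrocytes. EPHA7 is a receptor tyrosine kinase that binds ephrin-A ligands on neighbouring cells and guides axons and shapes dendrites and spines.

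The 2 *Gpm6a* probes are assigned to different RefSeq transcripts, NM_001253756 and NM_153581, and the 2 *Gpm6b* probes to NM_001177958 and NM_023122. These names are labels of the study's table. Without the probe sequences it is unknown whether a probe reads only its named transcript, and both probes of a gene may read the same ones. RefSeq (GRCm38.p6) lists 3 curated transcripts for *Gpm6a*, 9 for *Gpm6b*, 3 for *Epha7* and 1 for *Marcks*, on chromosomes 8, X, 4 and 10. The promoter table held 5 start sites of 3 of the genes, and *Marcks* was not among them. The 120 bases before a start site are printed for both *Gpm6a* starts, and for 1 start each of *Gpm6b* and *Epha7* to set beside them. Capitals mark matches on either strand to any of 5 motifs. These are the TATA box, searched as TATAAA, and the box named after its letters CCAAT. The others are the GC box, searched as GGGCGG, the cAMP response element, searched as TGACGTCA, and the octamer, searched as ATTTGCAT. The motifs do not contain each other, and some were chosen after the sequences had been seen.
*Gpm6a*, first start, chr8:54779314-54779433, + strand: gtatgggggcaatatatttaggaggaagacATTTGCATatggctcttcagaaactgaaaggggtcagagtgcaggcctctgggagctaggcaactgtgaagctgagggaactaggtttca
*Gpm6a*, second start, chr8:54954608-54954727, + strand: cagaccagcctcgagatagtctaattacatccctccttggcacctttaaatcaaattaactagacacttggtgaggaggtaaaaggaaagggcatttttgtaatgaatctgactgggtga
*Gpm6b*, chrX:166238823-166238942, + strand: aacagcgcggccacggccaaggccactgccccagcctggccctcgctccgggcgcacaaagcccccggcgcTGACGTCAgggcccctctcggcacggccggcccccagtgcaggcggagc
*Epha7*, first start, chr4:28813011-28813130, + strand: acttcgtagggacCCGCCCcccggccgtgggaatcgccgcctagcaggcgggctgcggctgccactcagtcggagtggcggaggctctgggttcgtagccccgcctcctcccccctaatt

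In the 250 bases before the start, the *Gpm6a* promoters held 1 and 3 CpG dinucleotides, the *Gpm6b* promoter 15 and the first *Epha7* promoter 25, where the median of all 32851 promoters in the table was 6. Their GC content was 44.4% and 33.6% for *Gpm6a*, 63.2% for *Gpm6b* and 69.2% for *Epha7*, with a median of 52.4% over all promoters. The octamer occurred in 1.60% of all promoters and the cAMP response element in 1.55%, whereas the GC box occurred in 32.7%, the CCAAT box in 33.8% and the TATA box in 12.4%. A match is a string of letters and not a measured binding site, and the arrays hold no measure of transcription.

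All 6 probes were brighter in *Khsrp*-/- neocortex once arrays were brought to a common scale. Each array's 75th percentile of the log2 intensity was subtracted, so a value of 4 means 4 doublings above that percentile. The log2 changes ran from 0.42 to 0.64 with a median of 0.56, or from 1.34-fold to 1.56-fold, while the median change of all 48436 probes tested was -0.00056. All 6 probes were called at an unadjusted p under 0.05 and a difference of at least 25% in limma, as were 9.26% of all probes in this direction, and 0 of the 6 were called after Benjamini-Hochberg adjustment over all probes, as were 0.0826% of all probes. On 6 of 6 probes every *Khsrp*-/- array lay above every WT array, as on 12.4% of all probes. These counts repeat the selection and show nothing further about the genes. Without *Khsrp*-/- array 3, WT array 1 or WT array 2, 3, 2 and 2 of the probes were called, as were 5.83%, 5.20% and 5.68% of all probes.

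**Figure D1:**
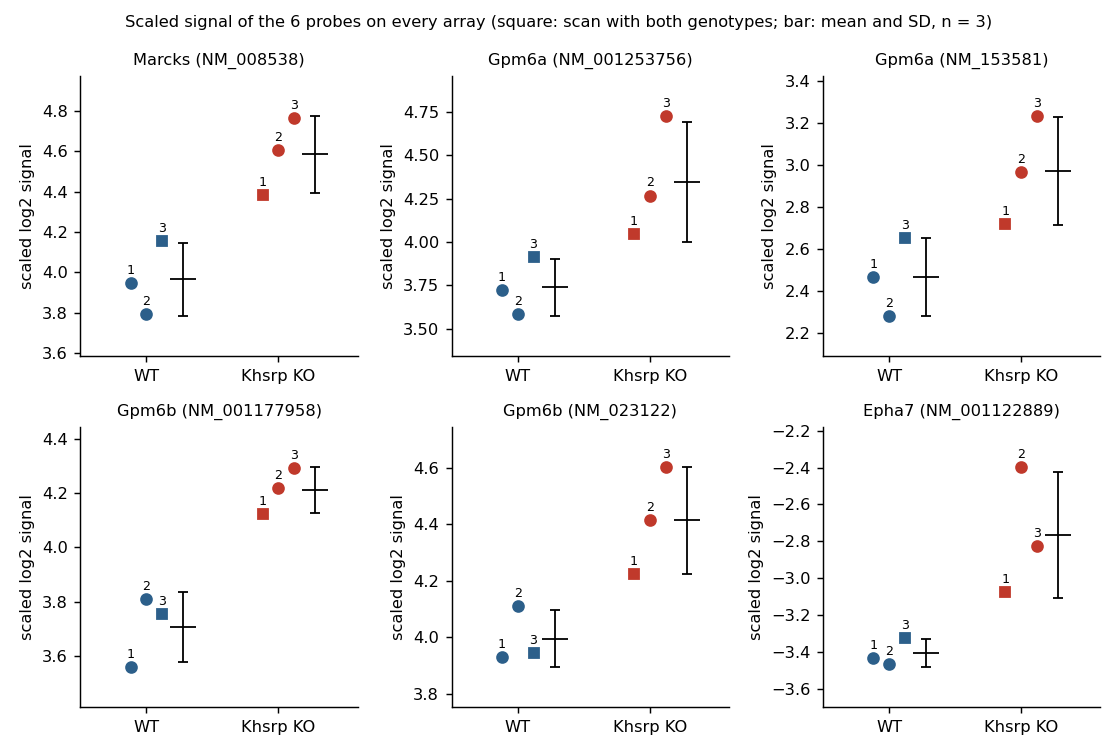
Scaled log2 signal (vertical axis, log2 units above each array's 75th percentile) of the 6 probes on the WT and Khsrp KO arrays, numbered by replicate, with mean and SD. Squares are Khsrp KO 1 and WT 3, which share a scan time, and every Khsrp KO point lies above every WT point of its panel, by 0.07 for the closest pair.

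Arrays were scanned at 3 recorded times, and this bears on every value below. *Khsrp*-/- array 1 and WT array 3 share a scan time, *Khsrp*-/- arrays 2 and 3 share another, and WT arrays 1 and 2 the remaining one. Genotypes can be compared within a scan only between *Khsrp*-/- array 1 and WT array 3, 1 array each. The percentile used for scaling stood at 8.85, 8.46 and 8.42 on *Khsrp*-/- arrays 1 to 3 and at 8.92, 8.96 and 8.73 on WT arrays 1 to 3, in log2 intensity, so *Khsrp*-/- arrays 2 and 3 were dimmest before scaling. The percentile was 0.13 higher in *Khsrp*-/- than in WT within the shared scan and differed by -0.50 between the other scans, where scan and genotype cannot be told apart.

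*Marcks* had processed intensities of 9635, 8569 and 9323 on the *Khsrp*-/- arrays and of 7499, 6890 and 7543 on the WT arrays. Thus, *Marcks* was brighter on every *Khsrp*-/- array even before scaling, with a gap of 1026 intensity units between the dimmest *Khsrp*-/- and the brightest WT array. Its scaled log2 signal was 4.38, 4.61 and 4.76 in *Khsrp*-/- and 3.95, 3.79 and 4.16 in WT neocortex. The means were 4.58 ± 0.19 (SD, n = 3) and 3.97 ± 0.18 (SD, n = 3), a log2 change of 0.62 (SE 0.18) or 1.54-fold. Within the shared scan the scaled difference was 0.23, and between the other scans it was 0.81. Before scaling, the same differences in log2 intensity were 0.35 and 0.31. The *Marcks* spot was between 326 and 504 times as bright as its local background and was saturated on 0 arrays.

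The *Gpm6a* probe for NM_001253756 had intensities of 7635, 6766 and 9096 in *Khsrp*-/- and of 6407, 5952 and 6363 in WT neocortex. *Khsrp*-/- array 3 stood highest by a wide margin, and *Khsrp*-/- array 2 lay only 360 units above the brightest WT array. The margin of array 3 was smaller in the median brightness as scanned, which was 7642.5, 6787 and 8297.5 on the *Khsrp*-/- arrays. On the scaled log2 axis this probe had values of 4.05, 4.27 and 4.73 in *Khsrp*-/- and of 3.72, 3.58 and 3.91 in WT. The log2 change was 0.61 (SE 0.21), or 1.53-fold, with an SD of 0.35 between *Khsrp*-/- arrays and of 0.16 between WT arrays (n = 3 each). It was 0.14 within the shared scan and 0.85 between the other scans.

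The *Gpm6a* probe for NM_153581 had intensities of 3037, 2743 and 3231 in *Khsrp*-/- and of 2686, 2416 and 2658 in WT. On this probe 57.8 units lay between the dimmest *Khsrp*-/- and the brightest WT array. The scaled log2 signal was 2.72, 2.97 and 3.23 against 2.47, 2.28 and 2.65, a log2 change of 0.51 (SE 0.19) or 1.42-fold. Within the shared scan the arrays differed by 0.07, less than the SD of 0.26 between *Khsrp*-/- arrays and of 0.18 between WT arrays (n = 3 each). Between the other scans the difference was 0.73.

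The *Gpm6a* probes followed each other from array to array. Their scaled log2 signals differed by 1.330, 1.302 and 1.493 on the *Khsrp*-/- arrays and by 1.254, 1.300 and 1.259 on the WT arrays. The SD of this difference within genotypes was 0.075, against 0.27 and 0.22 for the separate probes. The change of the NM_001253756 probe was 0.10 larger than that of the NM_153581 probe (SE 0.061, 95% interval from -0.066 to 0.27). Both probes were selected on this contrast, so the interval only describes these arrays. It includes 0, and *Khsrp*-/- array 3 held the largest of the 6 differences. On that array the NM_001253756 spot had a processed intensity of 9096 but a median brightness of 8297.5. With the normexp background correction, which took the median brightness, the changes of the NM_001253756 and NM_153581 probes were 0.52 and 0.48. The part of this spot in the difference was not tested. Levels of the 2 transcripts cannot be compared from these values, because each probe has its own brightness and may read more than its named transcript.

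Both *Gpm6b* probes overlapped between genotypes before scaling. The NM_001177958 probe had intensities of 8044, 6540 and 6732 in *Khsrp*-/- and of 5735, 6961 and 5708 in WT neocortex. WT array 2 was therefore brighter than *Khsrp*-/- arrays 2 and 3, and 7 of the 9 pairs of a *Khsrp*-/- and a WT array had the *Khsrp*-/- array on top. After scaling the groups no longer overlapped, with 4.12, 4.22 and 4.29 in *Khsrp*-/- and 3.56, 3.81 and 3.75 in WT. The log2 change was 0.50 (SE 0.15), or 1.42-fold. The SD within genotypes was 0.11, and 7.10% of all probes tested had a smaller one.

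The NM_023122 probe of *Gpm6b* had intensities of 8617, 7499 and 8342 in *Khsrp*-/- and of 7416, 8579 and 6510 in WT. WT array 2 again lay above *Khsrp*-/- arrays 2 and 3, and 7 of 9 pairs had the *Khsrp*-/- array on top. Its scaled log2 signal was 4.22, 4.42 and 4.60 against 3.93, 4.11 and 3.94, a log2 change of 0.42 (SE 0.16) or 1.34-fold, the lowest of the 6 probes. The change of the NM_001177958 probe exceeded that of the NM_023122 probe by 0.085 (SE 0.080, 95% interval from -0.14 to 0.31). The interval includes 0, and both probes were selected on this contrast, so it only describes these arrays.

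Before scaling, the genotypes did not overlap on 4 of the 6 probes, with the *Khsrp*-/- arrays on top, as on 4.20% of all probes.

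**Figure D2:**
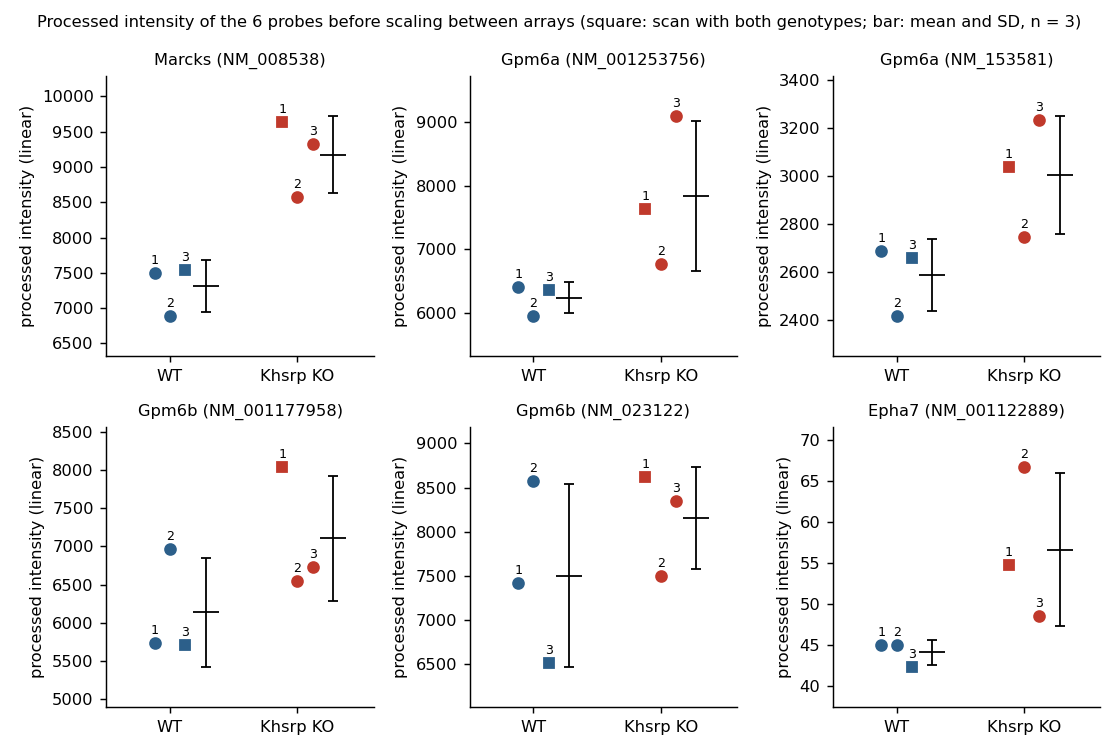
Processed intensity (vertical axis, linear units, background subtracted, not scaled between arrays, axes not starting at 0) of the 6 probes on the WT and Khsrp KO arrays, with mean and SD. The genotypes do not overlap for Marcks, both Gpm6a probes and Epha7, and they overlap for both Gpm6b probes, where WT 2 lies above Khsrp KO 2 and 3.

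Within the shared scan, *Gpm6b* showed the larger differences. The scaled difference between *Khsrp*-/- array 1 and WT array 3 was 0.37 and 0.28 for the *Gpm6b* probes, against 0.14 and 0.07 for the *Gpm6a* probes. In unscaled log2 intensity it was 0.49 and 0.40 for *Gpm6b* and 0.26 and 0.19 for *Gpm6a*. Between the other scans the order was the opposite, with unscaled differences of 0.071 and -0.012 for *Gpm6b* and of 0.35 and 0.22 for *Gpm6a*. Each comparison within the shared scan rests on 1 array per genotype and has no error of its own.

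*Epha7* gave a dim spot. Its processed intensity was 54.7, 66.8 and 48.5 in *Khsrp*-/- and 45.0, 45.0 and 42.3 in WT neocortex. All *Khsrp*-/- arrays were above all WT arrays, by 3.49 units at the closest. As scanned, the spot was between 3.50 and 5.13 times as bright as its local background, whereas this ratio was at least 121 for each of the other 5 probes. The scanner software marked the spot as well above background on 6 of 6 arrays, and its estimate of the error ran from 10.8% to 12.6% of the signal.

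**Figure D3:**
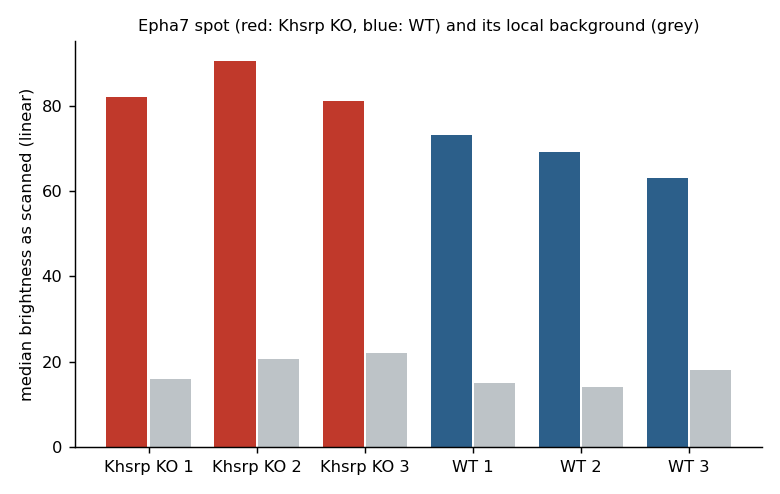
Median brightness as scanned (vertical axis, linear units from 0) of the Epha7 spot and of its local background on each array. The spot reads 82, 90.5 and 81 on the Khsrp KO arrays and 73, 69 and 63 on the WT arrays, and the background reads between 14 and 22.

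The scaled log2 signal of *Epha7* was -3.08, -2.40 and -2.83 in *Khsrp*-/- and -3.43, -3.47 and -3.32 in WT. Its means were -2.77 ± 0.34 (SD, n = 3) and -3.41 ± 0.075 (SD, n = 3), a log2 change of 0.64 (SE 0.20) or 1.56-fold, the highest of the 6 probes. This rank depended on the background of the dim spot. With the normexp background correction the change of *Epha7* was 0.42, above only that of the NM_023122 probe of *Gpm6b* (0.40). The *Khsrp*-/- arrays were spread more widely than the WT arrays, with *Khsrp*-/- array 2 on top. The difference was 0.25 within the shared scan and 0.84 between the other scans. In unscaled log2 intensity it was 0.37 and 0.34.

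Over the 6 probes the scaled change ran from 0.07 to 0.37 within the shared scan and from 0.49 to 0.85 between the other scans, with medians of 0.24 and 0.77. Before scaling, the medians were 0.36 and 0.27. All probes tested had a median change of 0.12 within the shared scan and of -0.49 between the other scans before scaling. Relative to all probes, the members' medians were 0.24 and 0.76 higher. Scaling shifts all probes of an array alike, so these values cannot differ between the scaled and the unscaled data. On the authors' normalized values they were 0.31 and 0.65. Over all arrays without scaling, the members' median was 0.27 and that of all probes was -0.29. In the authors' normalized values 6 of 6 probes were free of overlap, as were 12.8% of all probes with the *Khsrp*-/- arrays on top, and the members' median change was 0.51 over all arrays, 0.29 within the shared scan and 0.65 between the other scans. The part of the scan in these changes was not tested, because 4 of the arrays were scanned with arrays of their own genotype only.

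**Figure D4:**
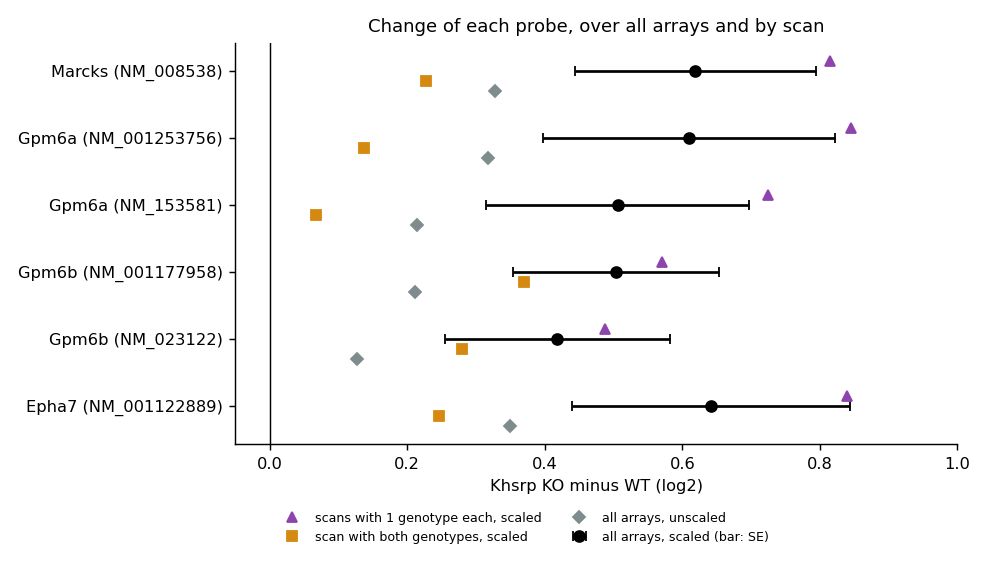
Khsrp KO minus WT (horizontal axis, log2) for each probe, over all arrays with SE, within the scan that holds both genotypes (1 array each), between the scans that hold 1 genotype each, and over all arrays without scaling. For each probe the scaled value within the shared scan lies below the scaled value over all arrays, from 0.07 for Gpm6a (NM_153581) to 0.37 for Gpm6b (NM_001177958).

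The order of arrays within a genotype depended on the scaling. On the scaled values *Khsrp*-/- array 1 was the lowest *Khsrp*-/- array on 6 of 6 probes, on the authors' values it was the lowest on 3 of 6, and before scaling on 0 of 6. *Khsrp*-/- array 3 was the highest on 5, 4 and 2 of 6 probes. *Epha7* was highest on *Khsrp*-/- array 2 on each of these scales. WT array 3 was the highest WT array for *Marcks*, both *Gpm6a* probes and *Epha7* on the scaled and the authors' values, and before scaling for *Marcks* only. Both *Gpm6b* probes were highest on WT array 2 among WT arrays on each of these scales.

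The deviations of *Marcks* from its genotype means correlated with those of the *Gpm6a* probes at r = 0.92 and 0.98 over the 6 arrays on the scaled values, at 0.87 and 0.90 on the authors' values and at 0.62 and 0.86 before scaling. For *Marcks* and the *Gpm6b* probes r was 0.32 and 0.39 on the scaled values, -0.18 and -0.18 on the authors' values and -0.025 and -0.16 before scaling. For *Epha7* with the other 5 probes r ran from 0.24 to 0.47 on the scaled values, from -0.37 to 0.29 on the authors' values and from -0.94 to -0.10 before scaling, so its sign turned with the scaling. The probes of *Gpm6a* correlated with each other at 0.97, 0.95 and 0.92 on the scaled, the authors' and the unscaled values, and those of *Gpm6b* at 0.76, 0.43 and 0.81. These correlations are across 6 arrays that share scan times, with the genotype means removed, and they describe these arrays only.

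**Figure D5:**
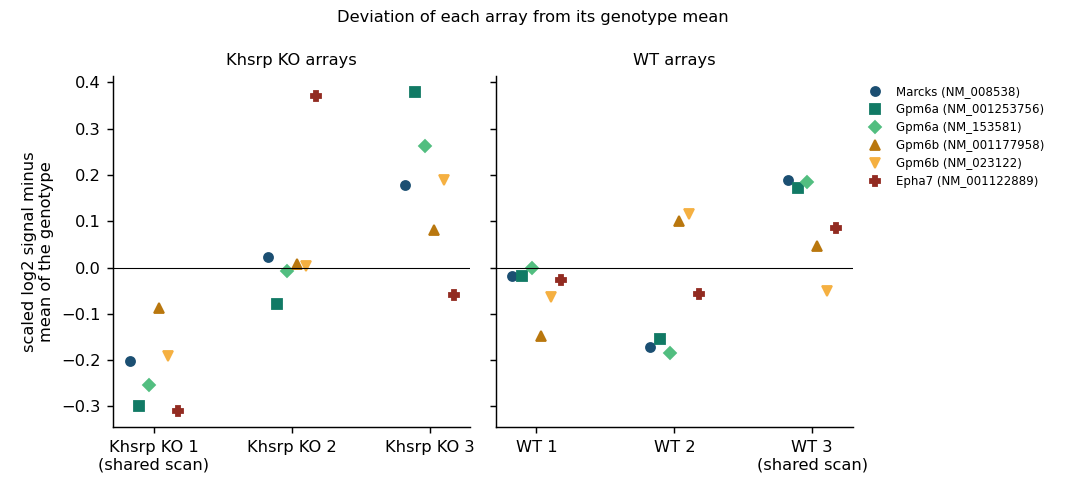
Scaled log2 signal minus the mean of the array's own genotype (vertical axis, log2) for the 6 probes on each Khsrp KO and WT array. All 6 probes lie below 0 on Khsrp KO 1, Marcks and Gpm6a lie together on every WT array, and Epha7 has its highest point on Khsrp KO 2.

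The scaled log2 signal of each probe was also set against the 1755 named probes of other genes that had a value on every array. The 3 nearest to each member had r between 0.9911 and 0.9997 over the 6 arrays, and all 18 were in the block of higher mRNAs, which held 1474 of the 1755 probes. The nearest to *Marcks* were *Pnma1*, *Gmnn*, which encodes the replication inhibitor geminin, and the kinase gene *Nek4*. For the NM_001253756 probe of *Gpm6a* they were *Pi4k2a*, a phosphatidylinositol 4-kinase gene, *Wls*, which encodes a carrier of Wnt proteins, and the AMPA receptor gene *Gria4*. For the NM_153581 probe they were the polyadenylation factor gene *Cpsf1*, the peptidase gene *Tpp2* and again *Pi4k2a*. Those nearest to the *Gpm6b* probes were the splicing regulator gene *Mbnl1*, *Dbil5* and *Synpo*, which encodes the actin-binding synaptopodin, for NM_001177958, and the transcription factor gene *Nkx2-2*, *Ahcyl1* and *Gm14322* for NM_023122. *Spock3*, *Gprin3* and the ubiquitin-conjugating enzyme gene *Ube2d2a* were nearest to *Epha7*. With the genotype means removed, r was between 0.9412 and 0.9990 for these pairs. With 6 arrays and so many probes, high values are common, and nothing follows about function.

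Other growth-cone genes could hardly be named. Of 65 genes in 7 lists (proteolipids, MARCKS and its relatives, Eph receptors, ephrins, protein kinase C, cytoskeleton and adhesion), 6 had a named probe, and only *Thy1* and *Nrn1* were not members. Of 14 Eph receptors only *Epha7* was named, and of 8 ephrins and 9 protein kinase C genes 0 were. *Thy1*, which encodes a surface glycoprotein of neurons anchored by a lipid, had scaled log2 signals of 2.86, 2.68 and 3.17 in *Khsrp*-/- and of 2.47, 2.37 and 2.59 in WT, a log2 change of 0.43 (SE 0.18). *Nrn1*, which encodes neuritin, had -1.04, -0.79 and -0.96 against -1.07, -1.41 and -1.34, a log2 change of 0.34 (SE 0.16). Within the shared scan *Thy1* differed by 0.27 and *Nrn1* by 0.30. *Slc1a2*, the glutamate transporter gene of astrocytes and the 1 named cell type marker, was 0.48 (SE 0.18) higher in *Khsrp*-/- neocortex on the log2 scale and 0.15 higher within the shared scan. Its part in the values of *Gpm6b*, which astrocytes also express, was not tested. All 3 come from the block of higher mRNAs as well, so their direction was fixed by the selection.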

How the data were processed

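The authors deposited, for each array, the output of Agilent Feature Extraction 11.0.1.1. The column used from it holds processed intensity in linear units, background subtracted and not scaled between arrays, beside the median brightness of spot and background and flags for bright, saturated and outlying spots. They also deposited normalized log2 values, whose normalization is not given in the sources used here (the labels name limma). Of 62939 spots per array, controls, 300 negative controls and outliers (25 to 43 spots) were left out, spots of a probe were averaged as log2, and each array's 75th percentile was subtracted. Between 71.6% and 82.9% of spots were well above background and 0 were saturated. Probes well above background on at least 3 arrays were compared with limma 3.58.1 in R 4.3.3, as tested first on simulated data. All 6 member probes passed this filter, with 1 spot per array. The number of arrays limits the precision. The p-values set a change against the spread between arrays of a genotype, in which mice and scan times are mixed.

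Symbols and transcript names came from the study's table, and for 15 control genes from RefSeq. Its block of lower mRNAs was linked to the arrays by matching the raw values printed there, which named 266 probes. No other values were taken from that table. Columns of that table with fold changes and p-values were not used. The members and lists were chosen with earlier results of these data known. Named genes are the members, list genes with a named probe, and the 3 named probes most correlated with each member over the arrays. Intervals of differences between probes are 95% intervals from the spread within genotypes (scipy 1.17.1). The promoters are those of RefSeq on GRCm38.p6, and gene positions were not used otherwise, since the arrays were designed on an older build. Alternatives covered scaling, background, filters, tests, blocks and left-out arrays. The normexp correction took the median spot brightness and an offset of 50.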

Additional observations from a re-analysis of the deposited data

How the results depend on the processing

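The change of each probe was recomputed under 20 alternatives. All 120 values were above 0, from 0.07 to 0.80, and 109 moved by less than the SD within genotypes. Other filters, a floor on the intensity, other variances, the t-test and the replicate block could not move a change and left each as it was. The selection had fixed the direction, so these counts only describe these arrays. The median change, 0.56 over all arrays, was 0.27 without scaling and 0.24 with the scan as a fixed block, and it ran from 0.44 to 0.68 when each array was left out in turn. The count of probes past a 25% difference and an unadjusted p under 0.05, 6 of 6, was 0 without scaling (2.52% of all probes), 0 with the scan as a fixed block (3.65%), 3 with the scan as a random block (6.97%), 3 at 1.5-fold (5.63%), and ran from 2 to 6 when each array was left out in turn (5.20% to 13.7%). The fixed block compares 1 array per genotype by its construction, and the unscaled values carry the shift of all probes by -0.29. On the scaled values the median change was smaller within the shared scan than over all arrays. Before scaling it was larger there, 0.36 against 0.27. The cause of these and of the other differences was not tested.

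With the replicate number as a block, the median stayed 0.56 and 5 probes passed, as did 7.31% of all probes. Arrays that carry equal numbers had deviations with r of -0.31, 0.10 and -0.31 over all probes, and the numbers were not treated as pairs. With so few arrays and with shared scan times, these correlations cannot exclude pairs. Under the other alternatives of scaling, background, filter and test the median lay within the spread between arrays, and at least 4 probes passed, with 7.17% of all probes under the methods' t-test, which gave 4, and 8.27% to 10.9% under the others, which gave 6. The number of arrays and, for *Epha7*, a spot near its background limit these values.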
